A study of Rattus norvegicus with 8 samples.

Results

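The genes of GABA synthesis and vesicle loading, Gad1, Gad2 and Slc32a1, were followed through 8 Affymetrix rat U34A arrays. All probe sets to which the platform annotation gives a single symbol, and that symbol is 1 of these 3, were taken: 1 probe set for Gad1, 1 for Gad2 and 2 for Slc32a1, 4 of the 8799 on the array and 3 of the 4737 genes that it names with a single symbol. The 4 groups were Pax6 homozygous forebrain, wild-type forebrain, Pax6 homozygous hindbrain and wild-type hindbrain of rat embryos at E12.5, with 2 arrays each. Heads were cut off at the level of the forelimb and split at the isthmus. Midbrain, eye and nose primordia thus went with the forebrain, and the pharyngeal arches with the hindbrain. The labels name neither the Pax6 allele nor the strain. Nor do they give the number of embryos per array or say whether both arrays of a group had separate animals as their source, so the p-values reflect array-to-array spread alone, which may be technical. In RNA from whole tissue parts, fewer cells of a type and less RNA per cell cannot be told apart.

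GABA is the main inhibitory transmitter of the adult forebrain. It is made from glutamate by glutamate decarboxylase, which comes in a form encoded by Gad1 that supplies most of the GABA of the cell body and a form encoded by Gad2 that is concentrated at nerve endings. Slc32a1 encodes the vesicular transporter that loads GABA, and glycine in glycinergic neurons, into synaptic vesicles. In the embryo, the first GABAergic neurons arise from the ventral telencephalon and diencephalon, the midbrain, and the ventral and dorsal hindbrain and spinal cord. Pax6 is a paired-domain transcription factor of dorsal telencephalic, eye and ventral hindbrain progenitors, and it helps to hold the border between dorsal and ventral telencephalon.

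The GABA genes were read near the lower limit of the arrays. Each value is an intensity on a linear scale in arbitrary units, as deposited. The noise level of an array was taken as the size of the 5th percentile of its intensities, which is negative, and lay between 243.55 and 622.715. On the 8 arrays, 42.8% of probe sets were above noise everywhere and 34.2% nowhere. None of the 4 GABA probe sets was above noise on all 8 arrays. Gad1 and 1 of the Slc32a1 probe sets were above noise on 4 of 8, and Gad2 and the other Slc32a1 probe set on 0 of 8. Noise was lower on replicate 2 than on replicate 1 in each of the 4 groups, which bears on every count of arrays above noise.

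**Figure D1:**
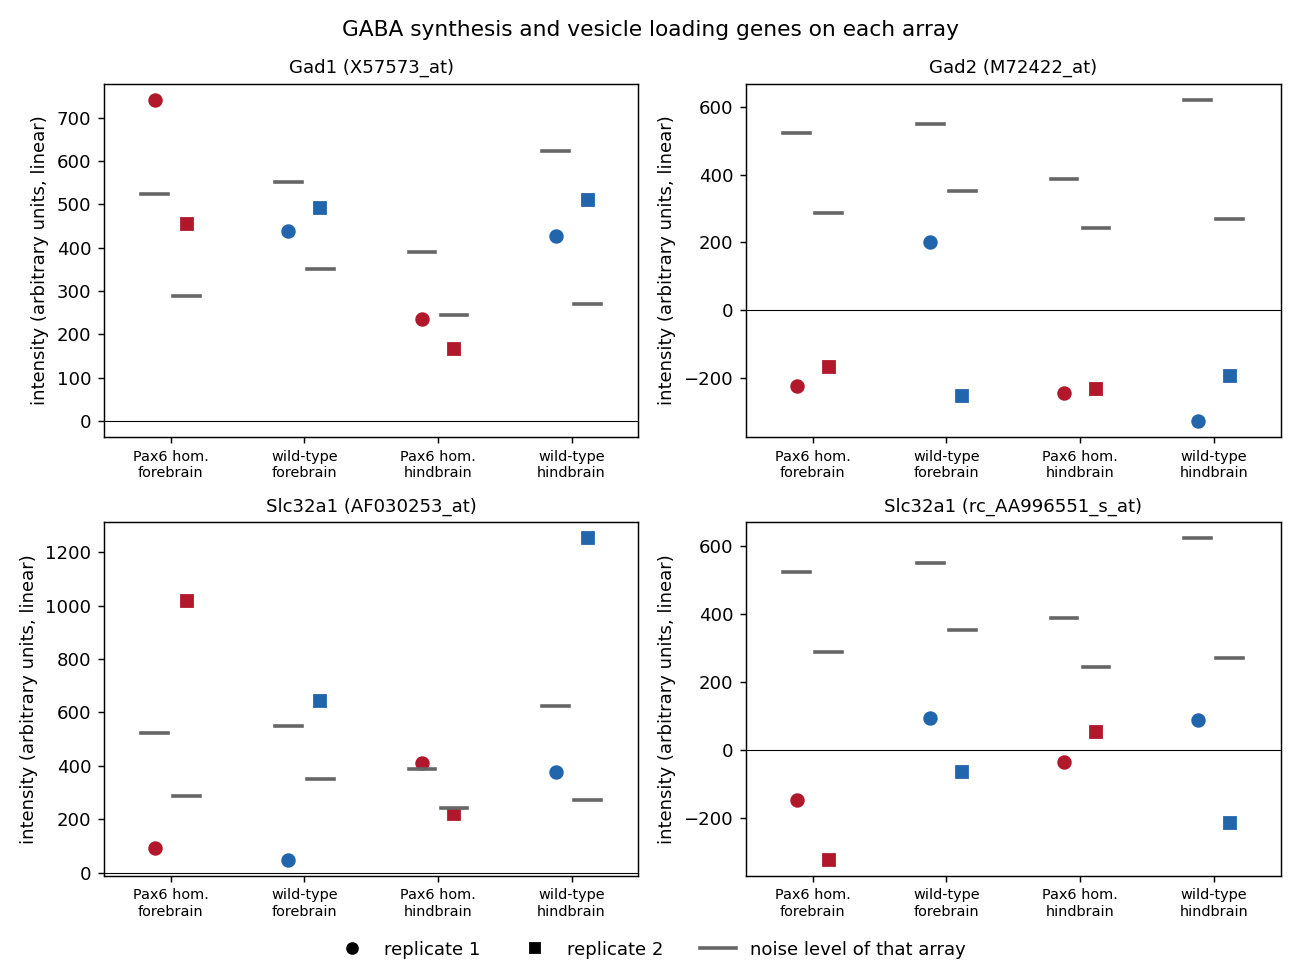
Intensity of the 4 GABA probe sets on each array (vertical axis, linear, arbitrary units), with Pax6 homozygous arrays in red and wild-type arrays in blue, replicate 1 as circles and replicate 2 as squares; grey bars give the noise level of the same array. Gad1 lies below noise on both Pax6 homozygous hindbrain arrays, Gad2 lies below 0 on 7 of 8 arrays, and the first Slc32a1 probe set is split by replicate in both forebrain groups.

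Gad1 (X57573_at, also known as Gad67) had its lowest intensities on the Pax6 homozygous hindbrain arrays. Its intensity was 741.3 and 454.9 in Pax6 homozygous forebrain, against 438.4 and 490.5 in wild-type forebrain. In hindbrain it was 235.4 and 167.2 on the Pax6 homozygous arrays, against 427.4 and 509.6 on the wild-type arrays. The hindbrain groups did not overlap and the forebrain groups did. Above noise were 2 of 2 arrays in Pax6 homozygous forebrain, 1 of 2 in wild-type forebrain, 0 of 2 in Pax6 homozygous hindbrain and 1 of 2 in wild-type hindbrain.

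Ordered by mean, Gad1 was at 598 ± 202.5 (SD, n = 2 arrays in this and the other groups) in Pax6 homozygous forebrain, 468.5 ± 58.1 in wild-type hindbrain, 464 ± 36.8 in wild-type forebrain and, lowest, 201 ± 48.2 in Pax6 homozygous hindbrain. The first 3 of these groups overlapped one another, and both arrays of the last lay below all 6 others. On each array Gad1 stood between the 34.1st and the 55.8th percentile of all probe sets.

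The Gad1 difference in hindbrain did not pass the test over all probe sets. Pax6 homozygous minus wild-type came to -1.23 ± 0.51 on the log2 scale (SE, 95% interval -2.39 to -0.08, unadjusted p = 0.0385, limma adjusted p = 0.989). Because no Pax6 homozygous hindbrain array and only 1 of 2 wild-type ones was above noise, no fold or bound can be given for this difference. Arrays that all lay below those of the other genotype were seen in 14.5% of the 5881 probe sets tested in hindbrain, so Gad1 shares this with many others. In forebrain the log2 difference was 0.32 ± 0.51 (95% interval -0.83 to 1.48, adjusted p = 1). Over both regions it was -0.45 ± 0.36 (95% interval -1.27 to 0.36, adjusted p = 0.928).

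The genotype difference of Gad1 in forebrain minus that in hindbrain was 1.56 ± 0.72 on the log2 scale (95% interval -0.07 to 3.19, unadjusted p = 0.0586, adjusted p = 1). A difference between the regions in the effect of genotype was thus not called. Set by region, both Pax6 homozygous forebrain arrays lay above both hindbrain arrays of that genotype. The hindbrain level was below noise, so the forebrain mean was set against the hindbrain noise levels, which gave 1.89-fold. That value takes no account of array-to-array spread and is not a lower limit of the difference. The fit, which takes the hindbrain values as measured, gave 1.55 ± 0.51 on the log2 scale (95% interval 0.40 to 2.70, unadjusted p = 0.0142, adjusted p = 0.488), which did not pass. Such a gap in this direction was found in 14.9% of tested probe sets. In wild-type embryos the forebrain minus hindbrain difference was -0.01 ± 0.51 (95% interval -1.16 to 1.14, adjusted p = 0.999), and over both genotypes 0.77 ± 0.36 (adjusted p = 0.654).

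Gad2 (M72422_at, also known as Gad65) gave no signal above noise in any group. Its intensity was -224.8 and -169.5 in Pax6 homozygous forebrain, while wild-type forebrain gave 201.6 and -253.4. It was -246 and -234.5 in Pax6 homozygous hindbrain, and -328.3 and -196.1 in wild-type hindbrain. It was below 0 on 7 of 8 arrays and above noise on 0 of 8. It did not pass the filter on dim probe sets (an intensity above 255 on at least 2 arrays), so it did not enter the main test. With no filter, 7 of its 8 values stand at the floor, and 0 of 7 contrasts passed (genotype in forebrain -1.07 ± 0.69 on the log2 scale, limma adjusted p = 1). A low intensity of a single probe set does not show that the transcript is absent.

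Slc32a1 was read by a pair of probe sets that did not follow each other. The first (AF030253_at) was at 94.7 and 1017.5 in Pax6 homozygous forebrain, against 49.2 and 641.8 in wild-type forebrain. It was at 411.2 and 219 in Pax6 homozygous hindbrain, against 378.2 and 1250.9 in wild-type hindbrain. Replicate 2 was higher than replicate 1 in 3 of the 4 groups, and all groups overlapped the one they were compared with. Its means were 556 ± 652.5, 345.5 ± 419, 315 ± 136 and 815 ± 617 in these 4 groups (SD, n = 2 each), and in 3 of them the SD exceeded the difference between the genotype means of that region.

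With that spread, AF030253_at gave a log2 difference between genotypes of 0.80 ± 1.40 in forebrain (95% interval -2.38 to 3.99, adjusted p = 1) and of -1.20 ± 1.40 in hindbrain (95% interval -4.38 to 1.98, adjusted p = 0.991). Forebrain minus hindbrain, over both genotypes, was -0.95 ± 0.99 (95% interval -3.20 to 1.30, adjusted p = 0.962). Intervals this wide reach far to both sides of 0, so neither a difference nor its absence can be read from this probe set.

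The second Slc32a1 probe set (rc_AA996551_s_at) ranged from -323.8 to 93.2, with a median of -51.1, and was above noise on 0 of 8 arrays. It was at -148.6 and -323.8 in Pax6 homozygous forebrain, with 93.2 and -65.2 in wild-type forebrain. It was at -37 and 52.4 in Pax6 homozygous hindbrain, and 87.5 and -215.3 in wild-type hindbrain. The filter left it out. With no filter, 5 of its 8 values were below 0 and stand at the floor. It then gave -0.51 ± 0.45 for genotype in forebrain and -0.37 ± 0.45 in hindbrain on the log2 scale (limma adjusted p = 1 for both). It passed in 0 of 7 contrasts. The sign in hindbrain depends on the floor, since the mean intensity was 7.7 in Pax6 homozygous against -63.9 in wild-type hindbrain. Its intensities ran against those of the first probe set over the 8 arrays (Pearson r = -0.74, with arrays and their replicate numbers in common). Slc32a1 thus rests on AF030253_at alone.

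**Figure D2:**
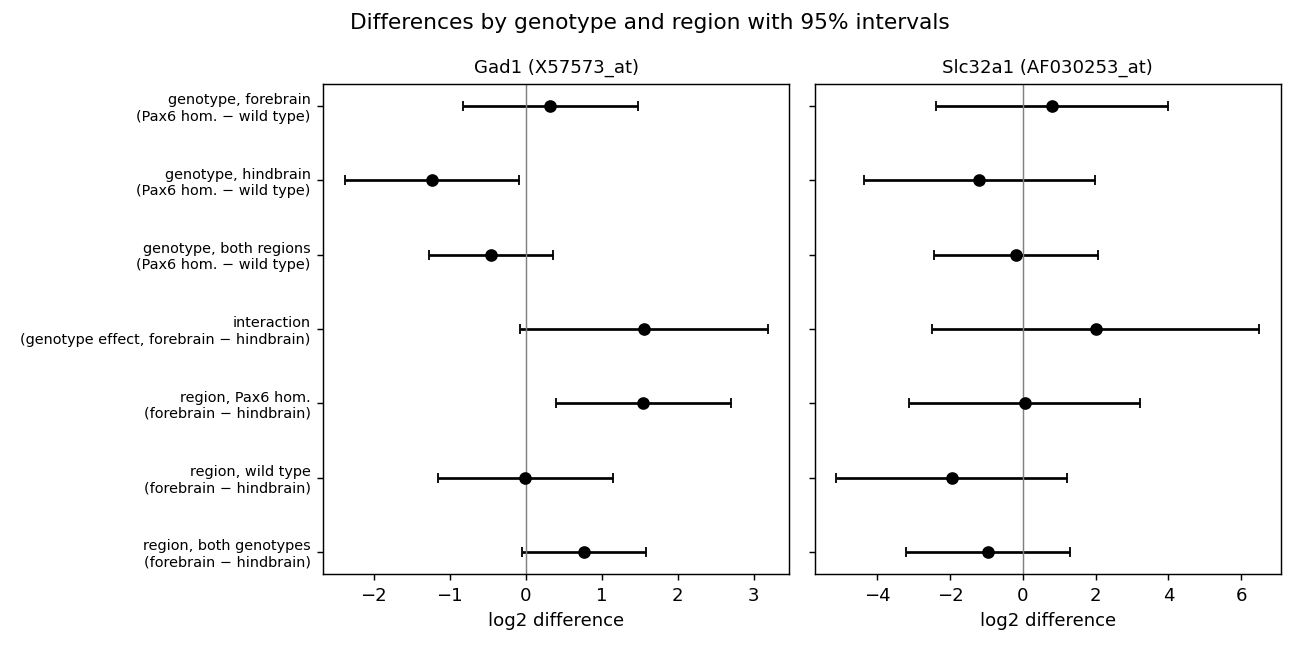
Log2 differences (horizontal axis) of the Gad1 and Slc32a1 probe sets that passed the filter, for each contrast, with 95% intervals from the fit as bars. For Gad1 the interval excludes 0 in the hindbrain genotype contrast and in the region contrast of Pax6 homozygous embryos, before adjustment over 5881 probe sets; every Slc32a1 interval spans 0.

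Of the 4 GABA probe sets 2 passed the filter, and 0 of these 2 passed limma's test in any of the 7 contrasts. At an unadjusted p under 0.05, 1 was reached in the hindbrain genotype contrast and 1 in the region contrast of Pax6 homozygous embryos, both by Gad1, and 0 in the other 5. Over all tested probe sets the share at an unadjusted p under 0.05 was 2.92% for genotype in forebrain, 4.49% for genotype in hindbrain, 5.02% for genotype over both regions and 1.9% for the interaction. It was 8.09% for region over both genotypes, 5.71% for region in wild type and 5.97% for region in Pax6 homozygous embryos. Few probe sets of any kind passed after adjustment. The share called over all 5881 tested was 0.017% for genotype in forebrain and 0.017% in hindbrain, 0.034% for genotype over both regions, 0% for the interaction, 1.51% for region over both genotypes, 0.782% for region in wild type and 0.459% for region in Pax6 homozygous embryos. The 1 probe set called between genotypes within each region was Fabp7 (U02096_at), a fatty acid binding protein of radial glia, at 528 and 472 in Pax6 homozygous forebrain against 3117 and 3934 in wild-type forebrain. The Pax6 probe set itself (S74393_s_at) lay between 927 and 1243 on Pax6 homozygous arrays and between 531 and 1197 on wild-type arrays. With the allele not given it checks nothing about the genotype labels.

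By the rule of highest Pearson correlation over the 8 arrays, among 3552 other genes, the genes most like Gad1 were Atp5pd, a subunit of mitochondrial ATP synthase (r = 0.945), the adhesion receptor gene Pvr (r = 0.943), the interferon-induced Mx2 (r = 0.924), the cytochrome P450 gene Cyp4f4 (r = 0.908) and the gonadotropin receptor gene Lhcgr (r = 0.907). Mx2, as an example, was at 2357 and 1862 in Pax6 homozygous forebrain, with 1988 and 1648 in wild-type forebrain. In hindbrain it was at 725 and 690 in Pax6 homozygous embryos and at 1879 and 1433 in wild-type embryos. Mx2 was picked for its likeness to Gad1, so the low Pax6 homozygous hindbrain that it shares follows from the choice. It is no evidence about Gad1. The genes most like Slc32a1 (AF030253_at) were Ptprs (r = 0.944), Copb2 (r = 0.924), Yif1a (r = 0.92), Tpp2 (r = 0.919) and Ywhab (r = 0.914). Ywhab, a 14-3-3 protein gene, was at 29831 and 35910 in Pax6 homozygous forebrain and at 29822 and 33899 in wild-type forebrain, again with replicate 2 the higher. These correlations were taken on log2 values. On linear intensities, Gad1 and AF030253_at themselves did not run together (r = 0.08).

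The rest of the GABA pathway was examined through 7 lists with 72 genes, of which 48 were on the array under a single symbol and 34 passed the filter. Each gene stands here by its brightest tested probe set. None of the 34 passed the test between genotypes in forebrain, in hindbrain or over both regions, or in the interaction. Between forebrain and hindbrain, over both genotypes, 4 passed, 2 as higher and 2 as lower in forebrain, where 0.289% and 1.22% of all tested probe sets passed in these directions. Judged by any of their probe sets, 16 of the 48 were above noise on all 8 arrays and 16 on none.

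Receptors for GABA were mostly dim. GABA-A receptors are chloride channels assembled from several subunits, and GABA-B receptors are coupled to G proteins. Of 17 subunit genes on the array, 3 were above noise on all 8 arrays, namely Gabbr1 of the GABA-B receptor (AB016161cds_r_at, 861.5 to 1510), the GABA-A delta subunit gene Gabrd (M35162_at, 495 to 994) and the rho subunit gene Gabrr1 (X95579_at, 595 to 1379). Another 9 of the 17 were above noise on no array. Gabrd is above noise by M35162_at alone, since its other probe set (L08496cds_s_at, -357.3 to 283.7) was above noise on no array. The other Gabbr1 probe sets were above noise on 5 (AB016160_at), 7 (AB016160_g_at) and 4 (AB016161cds_i_at) of 8 arrays. In hindbrain, AB016160_g_at had the lower mean in Pax6 homozygous embryos (832 against 1083 in wild type). The remaining Gabbr1 probe sets had the higher mean there. Of the 9 receptor genes tested, 0 passed in any contrast. The median log2 difference between genotypes was 0.09 in forebrain, with 7 of 9 positive, and -0.36 in hindbrain, with 7 of 9 negative. Over all 5881 tested probe sets these medians were 0.01 and 0.04, with 48.5% and 45.5% negative. Some of the 9 stood mostly below noise. Gabbr2 (AF058795_at) and Gabra6 (L08495cds_s_at) were above noise on 0 of 8 arrays, and Gabre (U92284_at) on 2. The lowest hindbrain difference, -2.32, was that of Gabbr2, with Pax6 homozygous intensities of -21.6 and 32.1, both raised to the floor. The signs of such genes cannot be read.

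Genes that remove GABA or supply its precursor passed no test. Of the uptake and breakdown genes, Slc6a11, a plasma membrane GABA transporter, ranged from 318.7 to 1032, Abat, the GABA transaminase, from 315.4 to 1016 (D87839_g_at), and Aldh5a1, the next enzyme of GABA breakdown, from 388 to 793. All 3 tested genes of that list had overlapping arrays between genotypes in both regions, and 0 passed in any contrast. In the supply list, Glul, glutamine synthetase, lay between 9347 and 11765 (M91652complete_seq_g_at), Glud1, glutamate dehydrogenase, between 7945 and 10569 (rc_AI179613_at), and Got2, an aspartate aminotransferase, between 12147 and 16508 (M18467_at). Of the 7 tested supply genes, 0 passed in any contrast. No gene of the pyridoxal phosphate list, 0 of 2, was on the array under a single symbol.

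In receptor anchoring and chloride transport, the brightest probe set of each of the 3 tested genes was above noise on all 8 arrays. Gabarap, a GABA-A receptor-associated protein, ranged from 21394 to 27259, Slc12a2, the sodium-potassium-chloride importer of immature neurons, from 1839 to 5080 (AF051561_s_at), and Gphn, the scaffold protein gephyrin, from 1295 to 1742. Other Slc12a2 probe sets were dimmer, above noise on 0 (AF086758_at, -209.6 to -7.7), 4 (AF086758_g_at) and 7 (S82233_s_at) of 8 arrays. Slc12a5, the chloride exporter of mature neurons, was above noise on 0 of 8 arrays. Of the 3 genes tested 0 passed in any contrast.

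Among transcription factors of GABAergic lineages, Nkx2-1 and Dlx5 were higher in forebrain. Nkx2-1 (X53858_at), which specifies the medial ganglionic eminence and the hypothalamus and is also made in the thyroid primordium, was at 6738 and 7300 in Pax6 homozygous forebrain and at 4011 and 4276.5 in wild-type forebrain. In hindbrain it was at 234.4 and 272.4 in Pax6 homozygous embryos and at 658 and 227.6 in wild-type embryos. It was above noise on all 4 forebrain arrays and on 2 of 4 hindbrain arrays. All 4 forebrain arrays lay above all 4 hindbrain arrays, and the forebrain was higher by 4.11 ± 0.32 on the log2 scale (adjusted p = 0.000277). The size of this difference rests in part on hindbrain values below noise, and it ran from 3.34 to 4.49 over the alternatives. Such separation of the regions, with forebrain higher, was found in 2.28% of tested probe sets. Between genotypes in forebrain its arrays did not overlap either, but the log2 difference of 0.76 ± 0.46 did not pass (adjusted p = 1), and 23% of tested probe sets were separated by genotype there in either direction. A second Nkx2-1 probe set (D38035cds_s_at) was above noise on 0 of 8 arrays.

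Dlx5 (D31734_g_at), a homeobox gene of ventral telencephalic neurons that is also made in the arches and the olfactory placode, was at 747 and 678 in Pax6 homozygous forebrain, against 1053 and 995 in wild-type forebrain. It was at 298.5 and 280.5 in Pax6 homozygous hindbrain, against 225.8 and 268.5 in wild-type hindbrain. It was above noise on all 4 forebrain arrays and on only 1 of 4 hindbrain arrays, so the size of its region difference rests on hindbrain values mostly below noise. The fit gave a forebrain higher over both genotypes by 1.68 ± 0.30 on the log2 scale (adjusted p = 0.0286). That call ended when values below each array's noise level were raised to it (1.21 ± 0.35, adjusted p = 0.174) and when any 1 of the 8 arrays was left out (adjusted p from 0.0664 to 0.171). Between genotypes in forebrain the Dlx5 arrays did not overlap, Pax6 homozygous being the lower, with a log2 difference of -0.52 ± 0.42 (adjusted p = 1). As for Nkx2-1, 23% of tested probe sets were separated by genotype there in either direction. In hindbrain the Dlx5 difference had the other sign, 0.23 ± 0.42, and did not pass. Within a single genotype the region difference of D31734_g_at did not pass (limma adjusted p = 0.0994 in wild type, 0.486 in Pax6 homozygous). A second Dlx5 probe set (D31734_at) ranged from -144.1 to 512.7, with the regions overlapping. It was above noise on 1 of 8 arrays and did not pass the filter. Of the 5 tested genes of the list, 2 passed as higher in forebrain over both genotypes and 0 as lower. Gata3 (AB000217mRNA_at), a factor of midbrain and hindbrain GABAergic neurons, ranged from -141.5 to 574.6 and did not pass.

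Among interneuron peptides and calcium-binding proteins, Sst and Calb2 were lower in forebrain. These proteins mark subsets of GABAergic neurons in the adult forebrain, but in the embryo they are also made by other neurons. Sst, somatostatin, had an intensity of 3678 and 2639 in Pax6 homozygous forebrain, with 2133 and 4041 in that of wild-type embryos (M25890_at). It was at 13354 and 16130 in Pax6 homozygous hindbrain and 16296 and 21661 in wild-type hindbrain. The forebrain was lower by 2.46 on the log2 scale (difference -2.46 ± 0.22, adjusted p = 0.00066), and no forebrain array reached a hindbrain array. A second Sst probe set (K02248cds_s_at) gave -3.75 ± 0.69 (adjusted p = 0.0344). That second call ended when any 1 of 6 arrays was left out (adjusted p from 0.102 to 0.206), the 6 being both arrays of Pax6 homozygous forebrain and all 4 hindbrain arrays.

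Calb2 (X66974_at), the calcium-binding protein calretinin, was at 1691 and 1018 in Pax6 homozygous forebrain and 2068.5 and 2002 in wild-type forebrain, against 4288 and 5192 in Pax6 homozygous hindbrain and 4114 and 5001 in wild-type hindbrain. The difference was -1.50 ± 0.20 on the log2 scale (adjusted p = 0.00687, and 0.0657 without Pax6 homozygous hindbrain replicate 2). Within wild type the Calb2 region difference did not pass (-1.16 ± 0.28, limma adjusted p = 0.204). Within Pax6 homozygous embryos it did (-1.85 ± 0.28, limma adjusted p = 0.0324), a call lost in 11 of 16 alternatives. Over both genotypes, Sst and Calb2 were 2 of 7 tested genes of their list that passed as lower in forebrain, and 0 passed as higher. Separation with forebrain lower was found in 4.37% of all tested probe sets. Reln, the secreted protein reelin, ranged from 1493 to 2294 and did not pass, and Pvalb, Cck, Vip and Nos1 were above noise on no array.

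**Figure D3:**
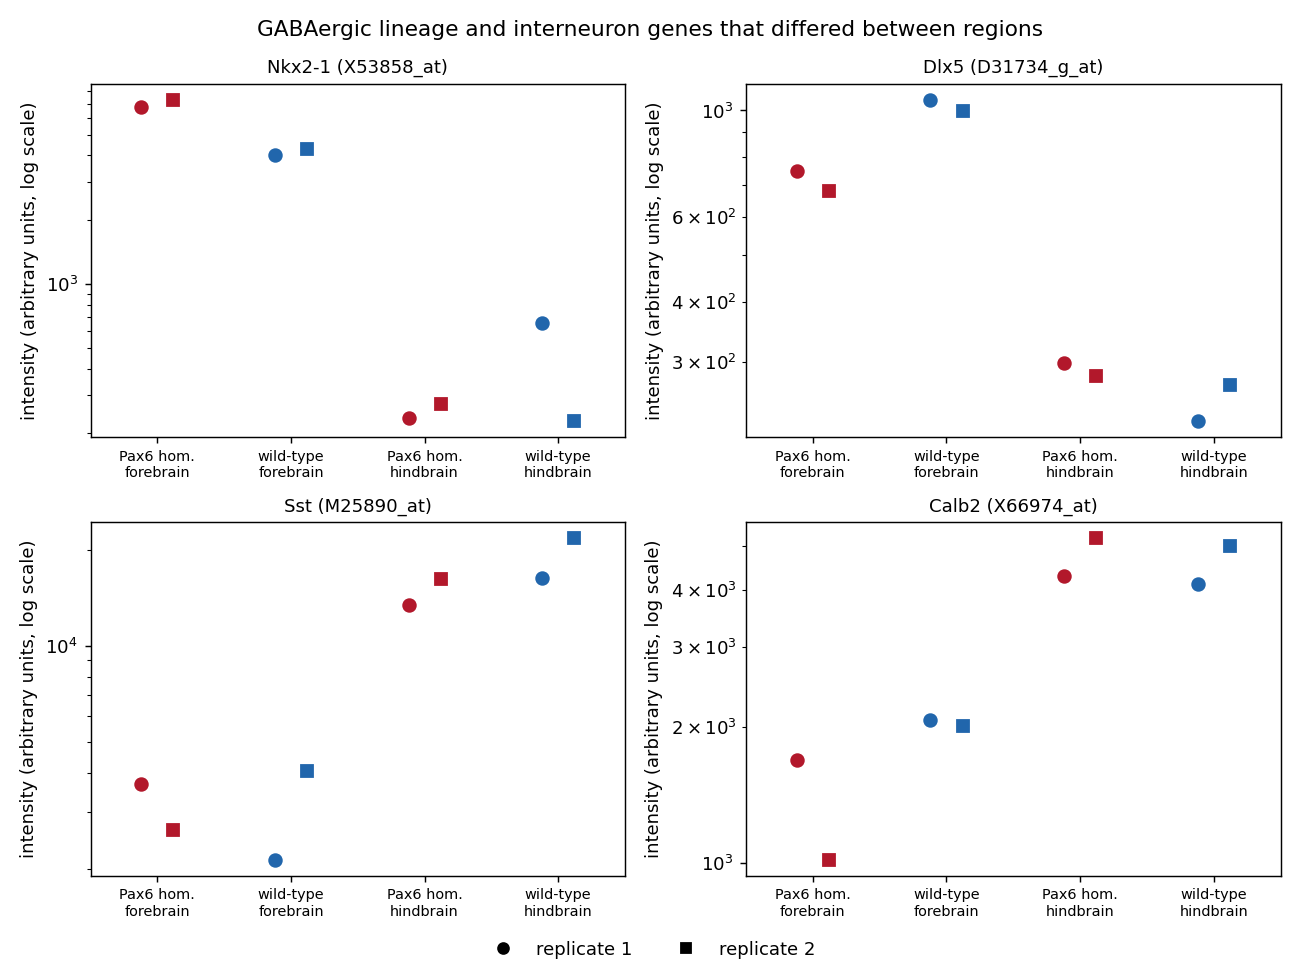
Intensity (vertical axis, log scale, arbitrary units) of the 4 genes of the GABA pathway lists that passed the region test, on each array, Pax6 homozygous in red and wild-type in blue. Nkx2-1 and Dlx5 are higher on all 4 forebrain arrays and Sst and Calb2 on all 4 hindbrain arrays.

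Genes common to neurons of all kinds included some that were lower in forebrain as well. Of 14 tested pan-neuronal genes, 12 had a negative forebrain minus hindbrain difference and 3 passed, the neurofilament genes Nefm, Nefl and Ina, all lower in forebrain (list median -0.57 on the log2 scale, against -0.02 over all tested probe sets). Summed over all 14 genes, intensity was 50624 to 54883 in Pax6 homozygous forebrain and 54567 to 57316 in wild-type forebrain. In hindbrain it was 86156 to 92457 in Pax6 homozygous embryos and 107402 to 120633 in wild-type embryos. Much of this gap came from the 3 neurofilament genes. Their wild-type means were 2966 (Nefm), 2077 (Nefl) and 5903 (Ina) in forebrain, against 21578, 16087 and 18277 in hindbrain. In Pax6 homozygous embryos they were 2919, 2910 and 4386, against 18090, 14306 and 9982. The sums thus do not show a gap shared by neuronal genes at large. Between genotypes in hindbrain, 12 of 14 log2 differences were negative with a median of -0.25, against 0.04 over all tested probe sets, and 0 passed. In 8 of the 14 both Pax6 homozygous hindbrain arrays lay below both wild-type ones, as they did in 14.5% of all tested probe sets. These values stand beside those of Gad1, Sst and Calb2, and their part in them was not tested.

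Markers of other cells were as follows. Of 8 tested genes for other transmitters, 0 passed in any contrast, and Chat of acetylcholine synthesis was above noise on 0 of 8 arrays. Of 10 neural progenitor genes, 1 passed as lower in the Pax6 homozygous group in each region and as lower in forebrain, Fabp7 in each case. Their genotype differences were negative in 9 of 10 in forebrain (median -0.33 on the log2 scale), 8 of 10 in hindbrain (median -0.18) and 10 of 10 over both regions (median -0.32). Of 8 head and arch mesenchyme genes, 1 passed as higher in forebrain, Alx1. Of 9 muscle genes, 3 passed as lower in forebrain, Actc1, Myh3 and Acta1. Blood genes gave 0 of 7 in any contrast, with a negative genotype difference in 7 of 7 in forebrain and 6 of 7 in hindbrain. Lens genes gave 0 of 8 between genotypes, with 8 of 8 negative in forebrain, and 1 of 8, Cryaa, passed as higher in forebrain in wild type. Over all 5881 tested probe sets, 0.289% passed as higher and 1.22% as lower in forebrain over both genotypes. For genotype 0.017% passed in each region, and 0.782% passed for region in wild type. Genotype differences were negative in 48.5% of tested probe sets in forebrain, 45.5% in hindbrain and 45.7% over both regions. None of the lists of other cells defines GABAergic cells, and their part in the Gad1 values was not tested.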

How the data were processed

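Per the labels' protocols, poly(A) RNA was copied to cDNA, transcribed to biotin-labelled cRNA and hybridised, 1 sample per array. The authors deposited 1 linear intensity per probe set and array. Their software and scaling: not given in the sources used here. Values included negatives (18.3% to 22.3% of each array), and their trimmed mean (2% off each end) was 2500 on every array.

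Intensities under the pooled 25th percentile (45.9) were set to it before log2. A probe set was tested if 2 or more arrays exceeded the 40th percentile of all values (255), which left 5881 after leaving out 59 controls. All 8 arrays entered 1 model of 4 group means (limma 3.58.1, R 4.3.3, eBayes with an intensity trend, 4 residual and 4.63 prior degrees of freedom). P-values are two-sided, Benjamini-Hochberg adjusted over all tested probe sets, threshold 0.05. A ± beside a log2 difference is the standard error. The fold against noise, given only where both bright arrays were above noise, sets the bright group against the noise levels of the dim group. It takes no account of array-to-array spread. The number of arrays limits precision.

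Symbols came from the platform annotation (7018 probe sets with 1, 308 with several, which were not named). Their Entrez identifiers were set against the RefSeq gene table of GRCr8, and 0 symbols changed. Named genes were every GABA probe set, list genes past the threshold in any contrast, and up to 3 genes of each pathway list with the highest mean intensity. For the lists of other cells only genes past the threshold are named, and Slc12a5, Pvalb, Cck, Vip, Nos1 and Chat were named after their values were seen. Members and lists were chosen with earlier results of these data known. The fit was tested on simulated data. Same-numbered arrays deviated together in all 6 pairs of groups (r from 0.275 to 0.465). The labels do not say what the numbers share, and the fit with the number as a block is given among the alternatives. Other alternatives were the floor, filter, normalization, variance trend, samples fitted, averaging a gene's probe sets, and leaving out each array.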

Additional observations from a re-analysis of the deposited data

How the results depend on the processing

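None of the GABA probe sets passed the threshold in any of the 7 contrasts under any alternative tried (0 in each). With the replicate block, which follows numbers shared by the labels, Gad1 in hindbrain had the same log2 difference of -1.23 with an adjusted p = 0.522, and 0 GABA probe sets passed. Over the alternatives the Gad1 hindbrain difference ran from -1.48 to -0.02, smallest when values under the pooled median were raised to it, and its adjusted p was never under 0.522.

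Small, uncalled differences changed sign. For Gad1, genotype in forebrain ranged from -0.0277 to 0.677 over the arrays left out, lowest without Pax6 homozygous forebrain replicate 1. Genotype over both regions was 0.135 with the pooled-median floor. Region in wild type was 0.136 after quantile normalization and ranged from -0.136 to 0.118 over the arrays left out, being above 0 when wild-type forebrain replicate 1 (0.0718) or hindbrain replicate 2 was dropped. For Slc32a1 (AF030253_at), genotype in forebrain ranged from -1.05 to 2.66 over the arrays left out, being below 0 without replicate 1 of wild-type (-1.05) or replicate 2 of Pax6 homozygous forebrain (-0.908). Genotype over both regions ranged from -1.12 to 0.73, at 0.66 and 0.73 without Pax6 homozygous forebrain replicate 1 or wild-type forebrain replicate 2, and 0.24 and 0.03 without wild-type or Pax6 homozygous hindbrain replicate 2. Region in Pax6 homozygous ranged from -1.66 to 1.76, at -1.66 without forebrain replicate 2 and -0.41 without hindbrain replicate 2. Region over both genotypes was 0.0176 with the pooled-median floor and 0.318 with a floor at noise. The cause was not tested.

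Among pathway genes, Nkx2-1 and Sst (M25890_at) stayed past the threshold for region over both genotypes in all 15 alternatives, Calb2 in 13 and Dlx5 in 6. The second Sst probe set (K02248cds_s_at) stayed past it in 6 and lost the call in 9. The number of probe sets called over all tested ranged from 0 to 5 for genotype in forebrain (1 as reported), 1 to 22 in hindbrain (1), 1 to 19 over both regions (2), 0 to 13 for the interaction (0), 37 to 139 for region over both genotypes (89), 21 to 67 in wild type (46) and 14 to 65 in Pax6 homozygous embryos (27). The replicate block gave 139, 65 and 2 for region over both genotypes, region in Pax6 homozygous embryos and genotype in hindbrain, and leaving out Pax6 homozygous hindbrain replicate 2 gave 37 and 14 in the first 2 of these. With signals near noise, changes of Gad1, Gad2 or Slc32a1 below the noise level cannot be read, and the Slc32a1 intervals leave large changes unread too.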
